A study of Mus musculus with 9 samples.

Results

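Tight junction and epithelial adhesion genes were followed in the distal small intestine as a set of 9 genes: the claudins Cldn3, Cldn4, Cldn7 and Cldn15, the membrane proteins Ocln and F11r, the plaque proteins Cgn and Tjp1, and the cadherin Cdh1. They were chosen by name, and every probe set that the platform annotation assigned to exactly 1 of these symbols was taken. This gave 15 of the 45037 probe sets that are not controls, for 9 of 18193 genes with a probe set of their own. A probe set is a group of short probes on the array that together read 1 transcript region, and 14 of the 15 were bright enough to be tested.

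The samples came from 3 groups of 3 arrays. The BP samples came from tissue with the same Rag1 source label as the Rag1 samples and have BP in their titles, an abbreviation left unexplained there. The Rag1 samples were from mice named for Rag1, whose product cuts DNA to join antigen receptor segments in developing lymphocytes. The B6 samples were from wild type mice. All animals had carried Bacteroides thetaiotaomicron, a member of the normal gut flora, for 10 days, and pieces 10, 11, 12 and 14 of a gut divided into 16 were pooled whole for each RNA sample. The exact Rag1 allele, the sex and the age are not given in the labels, nor whether each array stands for its own mouse. P-values therefore cover the spread among these arrays, which may be technical, although the BP arrays differed in sex-linked genes as given below. In whole tissue, fewer cells of a type and less RNA per cell cannot be told apart.

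Tight junctions seal the space between neighbouring epithelial cells and set which ions and solutes pass there. Claudins and occludin span the membrane, with F11r, also called JAM-A, beside them. Tjp1, better known as ZO-1, is a scaffold that holds their tails to the actin cytoskeleton, and Cgn, cingulin, is a plaque protein bound to that scaffold. Cdh1, E-cadherin, forms the adherens junction just below, and in the small intestine the leakiness of the barrier depends on which claudins are present.

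Values below are normalized intensities, brought to 1 common distribution over the arrays, so that a value can be read against the other arrays of its probe set but not against another probe set. Log2 changes are differences of group means on the log2(intensity + 16) scale, given with their standard error (SE, n = 3 per group). The SE comes from the limma fit, with 1 spread per probe set shared by all 3 groups. A probe set was called where limma gave an adjusted p under 0.05 over all 27022 probe sets tested. Replicates spread more in BP, with a median SD over probe sets of 0.44 on the log2 scale, against 0.21 in Rag1 and 0.23 in B6. The shared SE does not show the wider spread of BP or the narrower spread of the other groups. The 3-prime to 5-prime ratio of the actin control probe sets, higher in degraded or incompletely copied RNA, reached 14.2, 2.43 and 20.2 on BP replicates 1, 2 and 3. It was 1.53 to 1.77 in Rag1 and 1.76 to 4.17 in B6. BP replicate 2 also stood apart by its overall brightness, with a median deposited intensity of 48.0, while the other 8 arrays had 29.4 to 37.4. Xist, the RNA that silences an X chromosome in female cells, had 41.6, 518 and 1948 on BP replicates 1, 2 and 3, with 6.69 to 22.6 in Rag1 and 1085 to 1510 in B6. Kdm5d, a gene of the Y chromosome, had 50.4, 4.80 and 9.91 on BP replicates 1, 2 and 3, with 63.2 to 76.4 in Rag1 and 3.27 to 13.0 in B6. By these 2 genes BP replicate 1 differed from BP replicates 2 and 3. The Y-linked Uty did not show that split, with 28.1, 84.6 and 38.5 on BP replicates 1, 2 and 3. Sex and group cannot be told apart between Rag1 and B6, and the part of sex in the BP comparisons was not tested.

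The start-site regions of the 3 genes called below, Cldn3, F11r and Cgn, are shown with that of Cldn4, which is the protein-coding neighbour of Cldn3 on chromosome 5 and was not called. Each runs 5′ to 3′ from 250 bases before to 50 bases after the gene's start in RefSeq (build GRCm38.p6), at chr5:134985964-134986263 on the + strand for Cldn3, chr1:171437311-171437610 on the + strand for F11r, chr3:94786433-94786732 on the - strand for Cgn and chr5:134946885-134947184 on the - strand for Cldn4. Capitals mark 2 kinds of letters on either strand, the GC box GGGCGG, with its reverse complement CCGCCC, known as a site of Sp1 factors, and the E-box CACCTG, with its reverse complement CAGGTG, known as a site of Snail and Zeb repressors of Cdh1. Their matches do not overlap.
Cldn3: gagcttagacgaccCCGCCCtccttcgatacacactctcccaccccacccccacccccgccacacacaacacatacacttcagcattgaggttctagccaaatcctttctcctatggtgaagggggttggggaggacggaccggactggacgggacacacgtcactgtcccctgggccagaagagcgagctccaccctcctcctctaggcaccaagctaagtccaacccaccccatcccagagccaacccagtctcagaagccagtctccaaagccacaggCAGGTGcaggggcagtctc
F11r: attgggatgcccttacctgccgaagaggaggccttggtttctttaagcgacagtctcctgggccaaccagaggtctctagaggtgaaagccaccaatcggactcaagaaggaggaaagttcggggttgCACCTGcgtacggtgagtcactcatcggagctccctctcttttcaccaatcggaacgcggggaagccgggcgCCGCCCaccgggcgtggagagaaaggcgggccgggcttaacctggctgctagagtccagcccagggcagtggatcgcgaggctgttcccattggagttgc
Cgn: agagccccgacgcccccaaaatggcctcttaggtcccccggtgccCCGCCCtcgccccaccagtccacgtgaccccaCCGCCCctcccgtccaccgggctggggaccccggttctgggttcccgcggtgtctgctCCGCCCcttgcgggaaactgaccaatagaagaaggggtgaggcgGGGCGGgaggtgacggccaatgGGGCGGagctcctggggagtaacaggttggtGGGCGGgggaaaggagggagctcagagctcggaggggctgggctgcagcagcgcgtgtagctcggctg
Cldn4: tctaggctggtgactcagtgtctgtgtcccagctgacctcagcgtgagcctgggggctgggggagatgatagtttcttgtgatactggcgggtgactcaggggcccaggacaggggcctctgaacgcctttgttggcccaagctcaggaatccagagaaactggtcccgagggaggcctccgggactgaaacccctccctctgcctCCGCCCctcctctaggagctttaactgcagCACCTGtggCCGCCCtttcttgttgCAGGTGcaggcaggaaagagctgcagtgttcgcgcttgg
The Cgn window held 6 GC boxes and 0 E-boxes, the Cldn4 window held 2 of each, and the Cldn3 and F11r windows held 1 of each. Of the 9 genes, 8 had windows in the table, all but Cdh1, and some had more than 1. Of the 10 windows of these 8 genes, 9 held a GC box and 6 held an E-box, where 35.7% and 20.2% of all 32851 windows held each motif. The letters did not separate the genes that were called from those that were not, since Cldn3 and Cldn4 held both motifs.

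Among the claudins, Cldn3 was lower in BP than in both other groups. Cldn3 is a sealing claudin of the intestinal epithelium and had 4 probe sets. On 1426332_a_at it read 782, 745 and 521 on the BP arrays, 2044, 1833 and 2132 on the Rag1 arrays and 1316, 1790 and 1394 on the B6 arrays. The 3 groups did not overlap on this probe set: BP lay lowest and Rag1 highest. The change of BP was -1.55 ± 0.19 against Rag1, or 2.93-fold lower (adjusted p = 0.00599), and -1.13 ± 0.19 against B6, or 2.18-fold lower (adjusted p = 0.0245). On 1434651_a_at the values were 2150, 1931 and 1695 in BP, 3642, 3461 and 3919 in Rag1 and 3141, 3350 and 3221 in B6. That probe set was called lower in BP against Rag1 (-0.93 ± 0.13, adjusted p = 0.00915) and against B6 (-0.75 ± 0.13, adjusted p = 0.0252).

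The other Cldn3 probe sets gave the same order of groups with smaller changes than 1426332_a_at. On 1451701_x_at Cldn3 read 1591, 1977 and 1332 in BP, 3096, 2865 and 3471 in Rag1 and 2417, 2739 and 2575 in B6. It was called lower in BP against Rag1 (-0.95 ± 0.16, adjusted p = 0.0140) and missed the threshold against B6 (-0.67 ± 0.16, adjusted p = 0.0922). On 1460569_x_at, the brightest of the 4, it read 2603, 2210 and 2274 in BP, 3186, 3093 and 3763 in Rag1 and 2880, 2893 and 3082 in B6. All BP arrays again lay below all others, but the change missed the threshold against Rag1 (-0.50 ± 0.13, adjusted p = 0.0560) and against B6 (-0.32 ± 0.13, adjusted p = 0.272). Names ending in _x_at mark probe sets of which some probes also match other transcripts. Averaged over its 4 probe sets, Cldn3 was lower in BP against Rag1 (-0.98, adjusted p = 0.00809) and against B6 (-0.72, adjusted p = 0.0430).

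The remaining claudins did not pass in any comparison in the fit reported here, though some passed in other settings given at the end. Cldn4, a claudin that is sparse in the small intestine and abundant in colon, read 219, 279 and 196 in BP, 240, 246 and 475 in Rag1 and 460, 385 and 366 in B6. BP and Rag1 overlapped, Rag1 replicate 3 was the highest of the 9 arrays, and the change of BP was -0.39 ± 0.27 against Rag1 (adjusted p = 0.472) and -0.77 ± 0.27 against B6 (adjusted p = 0.213). Cldn7, which binds Epcam and lies along the sides of epithelial cells, read 5459, 5104 and 5774 in BP, 6822, 6938 and 6880 in Rag1 and 6362, 6703 and 6612 in B6. Its groups did not overlap, yet the shift was small, -0.34 ± 0.095 against Rag1 (adjusted p = 0.0712) and -0.27 ± 0.095 against B6 (adjusted p = 0.215). Cldn15, a claudin that forms channels for sodium ions and is needed for nutrient uptake in mouse small intestine, read 1607, 1829 and 1817 in BP, 2523, 2963 and 1917 in Rag1 and 2790, 2707 and 2746 in B6. BP was the lowest group for Cldn15 as well, at -0.47 ± 0.16 against Rag1 (adjusted p = 0.128) and -0.65 ± 0.16 against B6 (adjusted p = 0.104).

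F11r fell in BP against Rag1 and Ocln did not change past the threshold. F11r, an immunoglobulin-type adhesion protein that helps junctions assemble, read 945, 718 and 967 in BP, 1436, 1913 and 1667 in Rag1 and 1465, 1634 and 1224 in B6 on 1424595_at. The BP arrays lay below all 6 others, while Rag1 and B6 overlapped. The change of BP was -0.92 ± 0.18 against Rag1, or 1.89-fold lower (adjusted p = 0.0245), and -0.71 ± 0.18 against B6 (adjusted p = 0.117). The other F11r probe set, 1436374_x_at, was too dim to test, with 13.3 to 18.7 in BP, 3.23 to 8.85 in Rag1 and 2.24 to 26.2 in B6, so the fall rests on 1 probe set. Averaged with the dim one, F11r was at -0.20 (adjusted p = 0.650).

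Ocln, a multi-pass membrane protein of tight junctions, had 2 tested probe sets. On 1448873_at it read 576, 524 and 541 in BP, 560, 589 and 505 in Rag1 and 408, 537 and 605 in B6. On 1440220_at it read 214, 162 and 184 in BP, 210, 168 and 171 in Rag1 and 168, 189 and 189 in B6. All groups overlapped on both. The change of BP against Rag1 was -0.0082 ± 0.19 and 0.024 ± 0.20, with 95% intervals of -0.42 to 0.40 and -0.42 to 0.47.

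In the plaque, 1 of the 2 Cgn probe sets fell and Tjp1 did not. On 1435155_at Cgn read 527, 236 and 524 in BP, 1312, 2029 and 1086 in Rag1 and 630, 1219 and 642 in B6. BP lay below all other arrays, and B6 replicates 1 and 3 came nearest to it. The change of BP was -1.78 ± 0.35 against Rag1, or 3.43-fold lower (adjusted p = 0.0245), and -0.94 ± 0.35 against B6 (adjusted p = 0.242). On the dim probe set 1430329_at Cgn read 56.7, 39.9 and 93.6 in BP, 75.2, 64.9 and 79.8 in Rag1 and 25.3, 65.9 and 90.0 in B6, with all groups overlapping and a change of -0.22 ± 0.36 against Rag1 (adjusted p = 0.796). Averaged over both probe sets, the Cgn change of -1.001 against Rag1 no longer passed (adjusted p = 0.0978).

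Tjp1 read 372, 753 and 317 in BP, 348, 372 and 390 in Rag1 and 310, 379 and 351 in B6. BP replicate 2 was the brightest array, and the other BP arrays lay within or near the range of Rag1. The change of BP was 0.27 ± 0.28 against Rag1 (adjusted p = 0.666, 95% interval -0.35 to 0.88), and without BP replicate 2 it was -0.10 (adjusted p = 0.707). When BP replicate 2 stood alone for BP, Tjp1 was called higher, by 0.99 (adjusted p = 0.00447), so its direction rests on that array.

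Cdh1, the adherens junction cadherin that holds epithelial cells together, read 1778, 2873 and 1845 in BP, 2083, 1993 and 2217 in Rag1 and 1801, 1904 and 2137 in B6. BP replicate 2 was again the highest array, and the other BP arrays lay at the low end. The change of BP was 0.011 ± 0.18 against Rag1 (adjusted p = 0.983, 95% interval -0.39 to 0.41) and 0.12 ± 0.18 against B6 (adjusted p = 0.821). Without BP replicate 2 it was -0.21 against Rag1 (adjusted p = 0.217), and when BP replicate 2 stood alone for BP it was called higher than in B6 (0.56, adjusted p = 0.0224), so its direction too rests on that array.

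**Figure D1:**
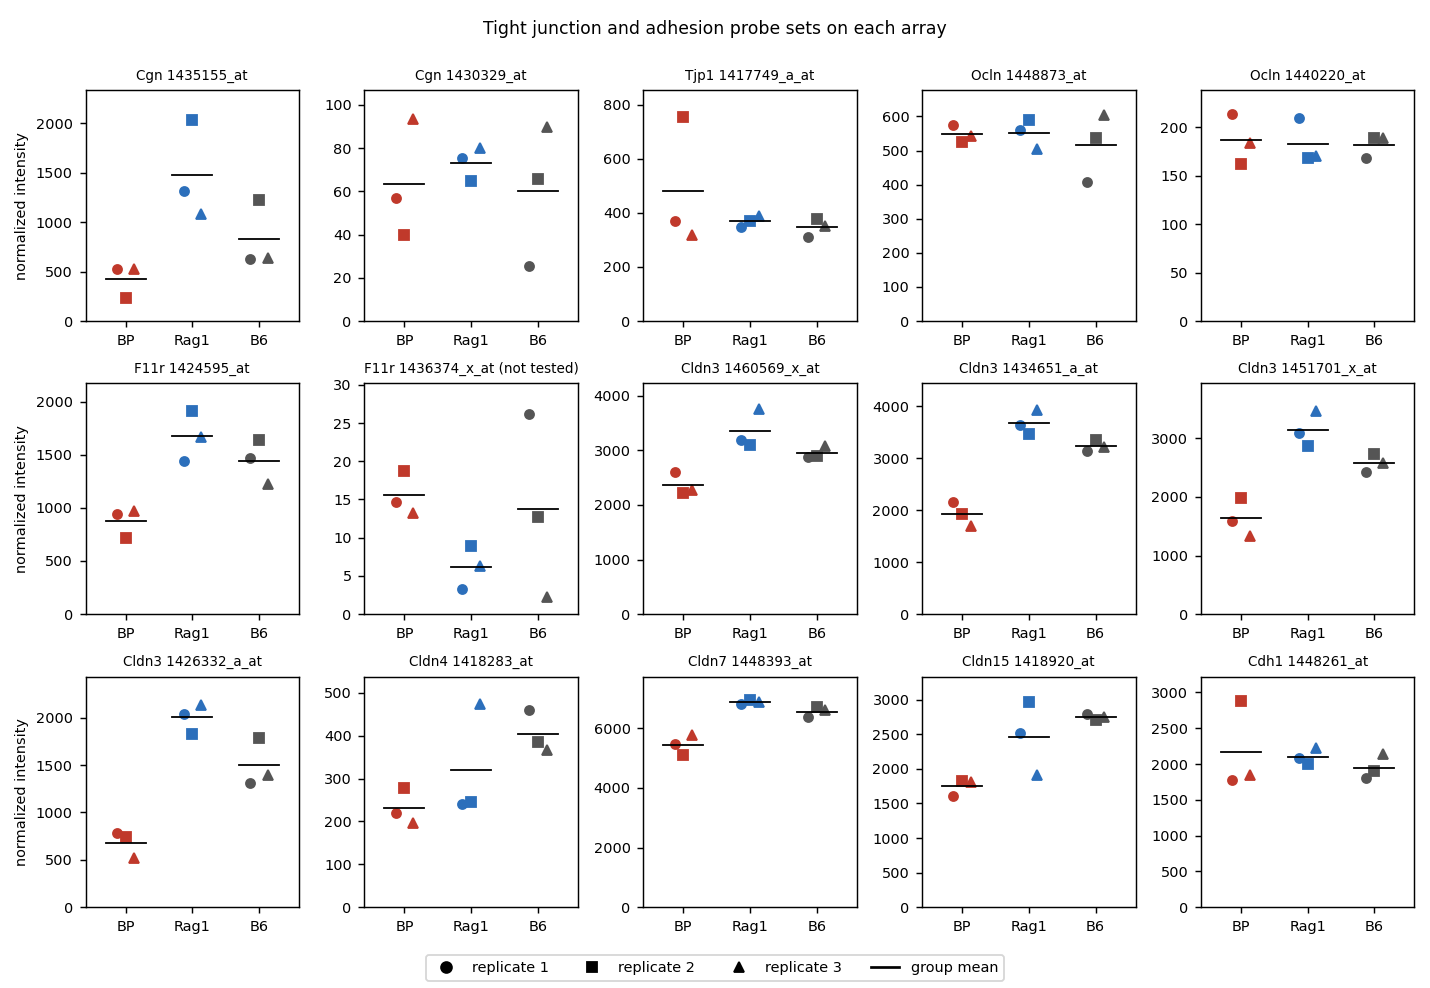
Normalized intensity of all 15 member probe sets on each array, with the groups BP, Rag1 and B6 along the x axis, replicates as marker shapes and group means as bars. The BP arrays lie below all others for Cgn 1435155_at, F11r 1424595_at, the 4 Cldn3 probe sets, Cldn7 and Cldn15, and BP replicate 2 is the highest array for Tjp1 and Cdh1.

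Over the tested members, BP against Rag1 gave 5 probe sets lower and 0 higher out of 14, for the 3 genes Cldn3, F11r and Cgn. Of all 27022 probe sets, 2.7% were called lower and 1.1% higher in this comparison. The median log2 change was -0.43 over the members and -0.045 over all tested probe sets. In 8 of the 14 every BP array lay below every Rag1 array, as it did in 14.2% of all tested probe sets. The 5 calls became 0, 1 and 2 without Rag1 replicates 1, 2 and 3, 3 without BP replicate 3 and 8 without BP replicate 2. The share of all probe sets called in those fits was not counted. The 4 Cldn3 probe sets read 1 gene and do not count as separate evidence.

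Against B6, BP had 2 member probe sets lower, both of Cldn3, and 0 higher out of 14, where 0.574% of all probe sets were called lower and 0.0592% higher. The members' median was -0.49, against -0.042 over all. In 9 of the 14 every BP array lay below every B6 array, as in 11.3% of all tested probe sets. The 2 calls became 0 without BP replicate 3 or without any 1 Rag1 or B6 array, and 6 without BP replicate 2. For those fits too the share of all probe sets called was not counted. The comparison of BP with B6 and that of BP with Rag1 share the BP arrays, so their changes are not independent of each other.

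Between Rag1 and B6, no member passed in limma, while 2 of the 14 had an unadjusted p under 0.05. These were Cgn 1435155_at, higher in Rag1 by 0.84 ± 0.35 (adjusted p = 0.834), and Cldn3 1426332_a_at, higher by 0.42 ± 0.19 (adjusted p = 0.881). In that comparison 0.0703% of all probe sets were called higher and 0.259% lower by the adjusted p. The share of all probe sets at an unadjusted p under 0.05 was not counted. The median change was 0.14 over the members and 0.010 over all tested probe sets. In 5 of the 14, the 4 Cldn3 probe sets and Cldn7, every Rag1 array lay above every B6 array, as in 8.7% of all tested probe sets. With array weights, both probe sets named here were called higher in Rag1.

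**Figure D2:**
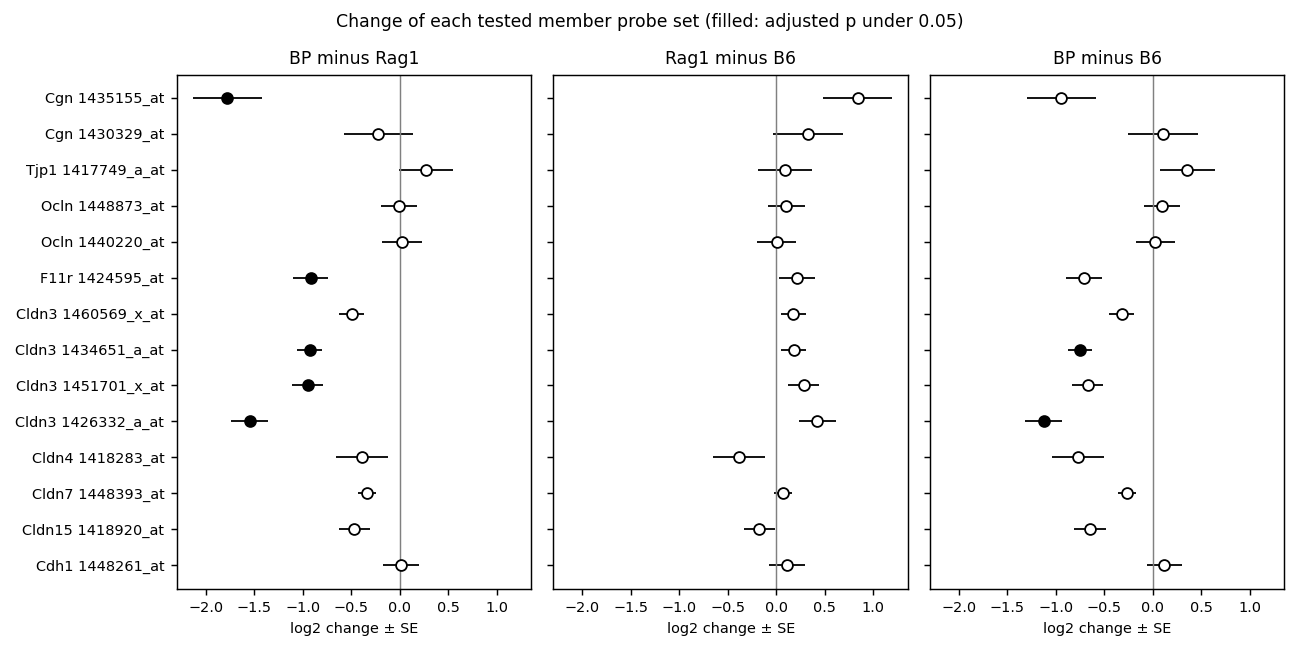
Log2 change with its SE for the 14 tested member probe sets in the 3 comparisons, filled where the adjusted p was under 0.05. The 5 filled points of BP minus Rag1 lie between -1.78 and -0.92, the 2 of BP minus B6 are Cldn3, and none is filled in Rag1 minus B6.

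Probe sets of 1 gene were compared by testing whether their changes differed, which leaves out how brightly each reads. In BP against Rag1 the Cldn3 probe set 1426332_a_at fell further than 1460569_x_at, with a difference of -1.05 ± 0.26 (adjusted p = 0.0495), and 5.42% of 9151 such pairs over all genes passed. The ratio of these probe sets was 0.305, 0.342 and 0.234 on the BP arrays, 0.643, 0.595 and 0.568 on the Rag1 arrays and 0.460, 0.621 and 0.455 on the B6 arrays. BP thus lay below both other groups in this ratio too. Within each group, however, the probe set ratio was lower the higher the actin ratio of the array. In BP it went from 0.342 at an actin ratio of 2.43 to 0.234 at 20.2. In B6 it went from 0.621 at 1.76 to 0.455 at 4.17, and in Rag1 from 0.643 at 1.53 to 0.568 at 1.77. The part of RNA quality in this ratio was not tested. The Cldn3 probe sets 1434651_a_at and 1451701_x_at differed from 1460569_x_at by -0.43 ± 0.19 and -0.45 ± 0.23 (adjusted p = 0.200 and 0.265). For Cgn the dim probe set exceeded the bright one in change by 1.56 ± 0.45 (adjusted p = 0.0725), and for Ocln the difference was 0.032 ± 0.26 (adjusted p = 0.953). No member pair passed in limma for Rag1 against B6 or BP against B6, where 0.0328% and 0.0437% of all pairs did. The single Cldn3 call just passed and was lost with each of the arrays left out except BP replicate 2.

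The called probe sets were set against the actin ratio of each array. On BP replicate 2, with a ratio of 2.43, the values below the Rag1 mean were -2.51 for Cgn 1435155_at, -1.19 for F11r and -1.41, -0.92 and -0.66 for Cldn3 1426332_a_at, 1434651_a_at and 1451701_x_at. On BP replicates 1 and 3, with the highest ratios, Cgn lay at -1.41 and -1.42 and F11r at -0.80 and -0.77. Cldn3 lay on these 2 arrays at -1.34 and -1.91 on 1426332_a_at, -0.77 and -1.11 on 1434651_a_at, and -0.97 and -1.22 on 1451701_x_at. Among the BP arrays, Cgn and F11r were thus lowest on the array with the lowest ratio, while the 3 called Cldn3 probe sets were lowest on the array with the highest ratio. Among the B6 arrays, replicates 1 and 3, with ratios of 3.25 and 4.17, had Cgn at -1.16 and -1.13, and replicate 2, with 1.76, had it at -0.22. With the ratio as a covariate, all 5 calls of BP against Rag1 stayed under the threshold, but not at the same size. Every BP ratio lay above every Rag1 ratio, so this fit cannot tell the ratio and the group apart. Its slope rests mostly on BP replicate 2 against BP replicates 1 and 3, where the ratio spreads most. The change was larger for Cgn, at -2.33 (adjusted p = 0.00548), and F11r, at -1.13 (adjusted p = 0.00695). It was smaller for Cldn3, at -1.23 on 1426332_a_at (adjusted p = 0.00453), -0.87 on 1434651_a_at (adjusted p = 0.00564) and -0.58 on 1451701_x_at (adjusted p = 0.0374), the last of these against -0.95 without the covariate. In that fit Cldn7 (-0.44, adjusted p = 0.0359) and Cldn3 1460569_x_at (-0.61, adjusted p = 0.0291) were also called lower, and Tjp1 was called higher (1.12, adjusted p = 0.00792).

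**Figure D3:**
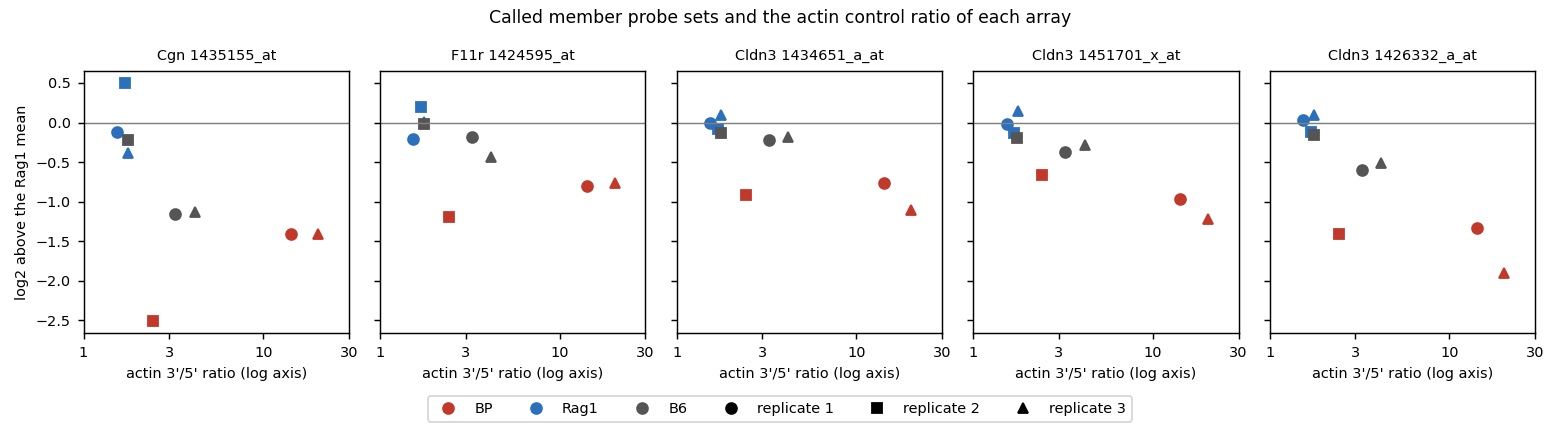
Log2 distance of each array from the Rag1 mean against the actin 3-prime to 5-prime ratio (log axis) for the 5 probe sets called in BP against Rag1, coloured by group and shaped by replicate. BP replicate 2 has a ratio of 2.43 and lies as far down as, or further than, the other BP arrays for Cgn and F11r.

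Markers of epithelium and of other cell types were read on the same arrays. The 12 epithelial markers were all bright, the lowest being Cdx1 at 469 on BP replicate 2, and their summed intensity was 45160 to 52016 in BP, 52634 to 56872 in Rag1 and 54011 to 57453 in B6. The BP sums thus lay just below the others, with 1 of 12 markers, Epcam, called lower against Rag1. Of 6 enterocyte markers 0 passed in limma, with sums of 42252 to 44059 in BP, 37046 to 44404 in Rag1 and 42330 to 43597 in B6. Of 6 goblet cell markers, Muc2 fell in BP against Rag1 (-0.53, adjusted p = 0.0417), and the median of the 6 was -0.51. Their sums were 23770 to 27474 in BP, 30896 to 34091 in Rag1 and 27080 to 29218 in B6, so BP lay below Rag1. Of 9 smooth muscle markers, Myh11 (-1.51, adjusted p = 0.0134) and Des (-0.69, adjusted p = 0.0485) fell in BP against Rag1. Acta2 (0.35, adjusted p = 0.166), Cnn1 (0.28, adjusted p = 0.580) and Lmod1 (0.46, adjusted p = 0.465) went the other way without passing. The median of these markers was -0.18, and their sums were 10166 to 14829 in BP, 11961 to 14222 in Rag1 and 10954 to 12982 in B6. Of all genes, 2.17% were called lower in BP against Rag1. Of 7 leukocyte markers, 0 passed between BP and Rag1 in limma, and 4 were lower in BP and 4 in Rag1 against B6, with sums of 1178 to 1616 in BP, 989 to 1039 in Rag1 and 4206 to 10351 in B6. Endothelial, fibroblast, nerve and glia, Paneth cell and pancreas markers had 0 calls in the 3 comparisons in limma. The part of these cell types in the changes of the junction genes was not tested.

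Of 89 other junction and adhesion genes on a list, 74 had a tested probe set, and the gene was represented by its brightest. In BP against Rag1, 1 of the 74 rose and 4 fell, where 1.1% of 13570 genes were called higher and 2.17% lower. The list's median was -0.079, against -0.016 over all genes. Ceacam1, an adhesion protein of the apical surface of enterocytes, read 2555, 1145 and 1982 in BP, 5704, 6247 and 5388 in Rag1 and 3037, 4271 and 3326 in B6. BP was the lowest group with a change of -1.67 ± 0.24 against Rag1 (adjusted p = 0.00982). Dsc2, a desmosomal cadherin, read 151, 212 and 116 in BP, 467, 354 and 421 in Rag1 and 283, 398 and 246 in B6, with a change of -1.32 ± 0.26 (adjusted p = 0.0230), while its other tested probe set was at 0.65 ± 0.38 (adjusted p = 0.371).

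The other genes of the list that passed moved less or were dim. Epcam, an epithelial adhesion protein that binds Cldn7, read 4368, 3837 and 4374 in BP, 5847, 5678 and 5920 in Rag1 and 4906, 5747 and 5588 in B6, a change of -0.47 ± 0.11 against Rag1 (adjusted p = 0.0389). Its other tested probe set was at -0.14 ± 0.31 (adjusted p = 0.860) and did not pass. Cdhr5, a protocadherin that links the tips of microvilli, changed by -0.47 ± 0.12 (adjusted p = 0.0481). Cldn18, best known as a claudin of stomach and lung, was dim and rose by 1.26 ± 0.31 (adjusted p = 0.0463), with 65.7, 60.1 and 90.3 in BP, 34.5, 21.4 and 9.51 in Rag1 and 66.0, 56.5 and 36.2 in B6. The 7 tested claudins of the list, Cldn18 among them, had a median of 0.38, with 5 changes positive and 2 negative. One of them, Cldn12, read 425, 417 and 491 in BP, 272, 192 and 235 in Rag1 and 289, 142 and 239 in B6. Its change was 0.90 ± 0.26 against Rag1 and missed the threshold in limma (adjusted p = 0.0767). By the brightest probe set, none of the 20 tested plaque and polarity genes, 13 adherens junction genes, 8 junctional actomyosin genes or 9 other tight junction membrane genes passed in limma. The 5 calls became 23 without BP replicate 2, 2 or 3 without 1 B6 array, and 0 or 1 without any 1 of the remaining arrays. Over the whole list 17 of 74 had an unadjusted p under 0.05. The share of all genes was not counted for these fits or for that threshold.

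The other probe sets of these genes gave further calls, named here after their values were seen. Over all 158 tested probe sets of the 74 genes, 17 probe sets were called lower and 2 higher in BP against Rag1. Of all 27022 tested probe sets 2.7% and 1.1% were. By gene, 14 had at least 1 call, and 9 of them had it only on a probe set other than the brightest. The share of all genes with a call on any probe set was not counted, and genes with more probe sets have more chances of a call. Of these 9, 8 were lower and 1 was higher. Among adherens junction genes, Ctnnb1, or beta-catenin, was called on other probe sets at -3.97 ± 0.70 (adjusted p = 0.0168) and -2.41 ± 0.50 (adjusted p = 0.0275), while its brightest was at -0.027 ± 0.14 (adjusted p = 0.942). Ctnnd1, or p120-catenin, was at -1.81 ± 0.22 (adjusted p = 0.00599), with its brightest at -1.30 ± 0.52 (adjusted p = 0.191). Vezt, a protein of the cadherin complex, was higher, at 1.501 ± 0.34 (adjusted p = 0.0364), with its brightest at -0.46 ± 0.38 (adjusted p = 0.557).

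Calls on other probe sets also came from further classes. Mylk, the myosin light chain kinase, was at -2.87 ± 0.44 (adjusted p = 0.0105), with its brightest at -0.43 ± 0.14 (adjusted p = 0.104). Shroom3, an actin-binding protein of apical junctions, was called lower on 3 probe sets at -2.18, -1.40 and -1.52, with its brightest at -0.070 ± 0.22 (adjusted p = 0.902). The polarity protein Crb3 was at -0.79 (adjusted p = 0.0452) and its brightest probe set, with the opposite sign, at 0.56 (adjusted p = 0.279). The desmosomal genes Pkp3 and Dsg2 were at -2.78 and -1.29 (adjusted p = 0.0130 and 0.0250), with their brightest at -0.11 and -0.20. Cldn2, a claudin that forms cation channels, was at -1.18 (adjusted p = 0.0345), with its brightest at -0.76 (adjusted p = 0.208). For these genes the result therefore depends on which probe set is read. Over all genes, 5.42% of 9151 pairs of probe sets of 1 gene changed differently in BP against Rag1. That share was 0.0328% for Rag1 against B6 and 0.0437% for BP against B6. How many pairs of these genes were among them was not counted. BP replicates 1 and 3 had actin ratios of 14.2 and 20.2, and the part of RNA quality was not tested.

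By the brightest probe set, 0 of the 74 genes passed for BP against B6 in limma, where 0.0368% of all genes were called higher and 0.545% lower. At an unadjusted p under 0.05 there were 16 of the 74. The share of all genes at that looser threshold was not counted. The smallest p among the 74 was that of Ceacam1, at -0.96 ± 0.24 (adjusted p = 0.113). The next was that of the claudin Cldn12, in the other direction, at 0.99 ± 0.26 (adjusted p = 0.118). Over all 158 probe sets 1 passed, the same probe set of Ctnnd1 as above, at -1.35 ± 0.22 (adjusted p = 0.0223). Of all tested probe sets 0.574% were called lower in that comparison. For Rag1 against B6, 0 of the 158 probe sets passed in limma. By the brightest probe set, 0.0737% and 0.317% of all genes were called higher and lower. At an unadjusted p under 0.05 there were 2 of the 74, again without a share over all genes. These were Ceacam1, at 0.72 ± 0.24 (adjusted p = 0.610), and Cldn18, at -0.89 ± 0.31 (adjusted p = 0.617).

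**Figure D4:**
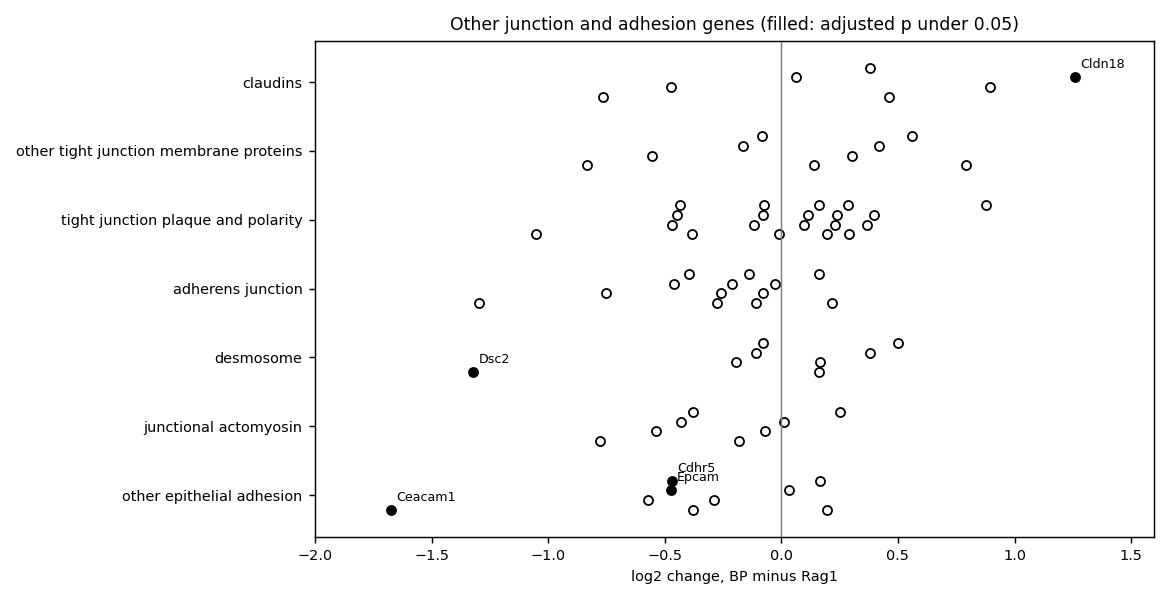
Log2 change of BP minus Rag1 for the 74 other junction and adhesion genes, 1 point a gene by its brightest probe set, by class down the page, filled where the adjusted p was under 0.05. Dsc2, Epcam, Cdhr5 and Ceacam1 lie to the left and Cldn18 to the right.

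The genes whose levels ran most like the called members over the 9 arrays were named by Pearson's r among 12808 other genes, as a description, since the arrays share their groups. For Cgn 1435155_at these were Lmtk2 (0.98), Zmiz1 (0.98) and Tmem250-ps (0.97). For F11r they were Pigs (0.98), Cdhr5 (0.98) and Rnf10 (0.97), Cdhr5 being the microvillus protocadherin above. For Cldn3 1426332_a_at they were Tpm1, a tropomyosin (0.99), Srprb, a subunit of the signal recognition particle receptor (0.99), and Tax1bp3, a small PDZ protein (0.99). Within groups, where group means were taken out, r for these 9 genes ran from 0.82 to 0.94.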

How the data were processed

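Affymetrix arrays of mouse distal small intestine were made from biotin-labelled cRNA of 20 µg total RNA, per the labels' protocols. The deposited values are linear intensities from 1 to 21694 for 45101 probe sets on 9 arrays. The software and any scaling by the authors are not given in the sources used here. Each column bears its sample's accession, and titles gave the groups.

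Intensities were taken as log2(value + 16) and quantile-normalized. The 64 controls and the lowest 40% of the rest by mean (under 5.30, an intensity of 23.5) were left out, leaving 27022 probe sets. The scale understates changes of dim genes. Of 34945 probe sets with 1 symbol, 34741 matched RefSeq identifiers.

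Group contrasts came from limma 3.58.1 (R 4.3.3), with 1 fit of all 9 arrays, moderated with an intensity trend, 6 residual degrees of freedom, two-sided, Benjamini-Hochberg over all probe sets. Differences between probe sets of a gene were fitted likewise over 9151 pairs. On simulated data for BP against Rag1 (27022 probe sets), 93.2% of changes of 2, 17.2% of changes of 1 and 0% of changes of 0.5 on the log2 scale were recovered, with 5.6% false calls. The simulated noise was independent and had 1 spread per probe set in all groups. The real BP arrays spread more than the others, so these rates need not hold for them.

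Named were all member probe sets, the called genes of the other list (or the 2 with the smallest p), and the 3 genes most like each called member. Members, lists, tests and alternatives were chosen with earlier results of these data known. The alternatives were other normalizations, pseudocounts, filters, fits and thresholds, a replicate block, and leaving out arrays. Promoter windows came from RefSeq (GRCm38.p6), and the files name no build.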

Additional observations from a re-analysis of the deposited data

How the results depend on the processing

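With 3 arrays per group, calls near the threshold were unstable. None of the 7 calls reversed in 22 alternatives each, but most of these alternatives could hardly reverse them. Every BP array lay below every array of the other group in all 7, and a changed filter, threshold or moderation leaves the log2 change as it was. Counts below stand without the share of all probe sets or genes called in the same setting, which was not counted. The 5 member calls of BP against Rag1 fell to 0, 1 and 2 without Rag1 replicates 1, 2 and 3 and to 3 without BP replicate 3, and rose to 8 without BP replicate 2 (range 0 to 8). They were 2 with only the 2 groups fitted and 2 at a threshold of 0.01, and 8 with the actin covariate and 8 when BP replicate 2 stood alone for BP, and is then assumed to vary like the other groups. The changes ranged from -2.50 to -1.42 for Cgn 1435155_at, -1.19 to -0.72 for F11r and -1.65 to -1.23 for Cldn3 1426332_a_at.

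For BP against B6 the count of 2 was 5 with median centring, 4 with array weights, 6 with the actin covariate, 6 with BP replicate 2 alone and 6 without BP replicate 2. It was 1 with the replicate block and 0 with values as deposited, with only the 2 groups, at 0.01, without BP replicate 3 and without any 1 Rag1 or B6 array (range 0 to 6). For Rag1 against B6 the count was 2 with array weights. Cldn15 was called lower in BP against B6 with median centring (adjusted p = 0.0214) and array weights (adjusted p = 0.0415). It was also called with the actin covariate (adjusted p = 0.0410) and without BP replicate 2 (adjusted p = 0.0129), and in no other setting. Cldn4 was called lower in that comparison only without BP replicate 2 (adjusted p = 0.0329).

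By their brightest probe sets, the 5 other junction genes of BP against Rag1 were 3 with a pseudocount of 1, 2 with no filter, 1 with only the 2 groups, 2 with the replicate block, 13 with array weights, 21 with the actin covariate, 27 with BP replicate 2 alone and 1 at 0.01. With 1 array left out they were 0 without Rag1 replicate 1 or 2, 1 without Rag1 replicate 3, BP replicate 1 or BP replicate 3, 2 or 3 without a B6 array, and 23 without BP replicate 2 (range 0 to 23). For BP against B6 the 0 became 1 with median centring, 2 with array weights, 17 with the covariate, 23 with BP replicate 2 alone and 0 to 8 with 1 array left out, the 8 without BP replicate 2. For Rag1 against B6 it became 1 with only the 2 groups, 2 with array weights, 1 with the covariate, 1 with BP replicate 2 alone and 0 to 1 with 1 array left out, the 1 without BP replicate 2.

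The 1 pair of member probe sets that changed differently became 0 with median centring, values as deposited, a pseudocount of 1, no filter, only the 2 groups, the replicate block, robust moderation, the covariate, BP replicate 2 alone and 0.01, and 2 with a pseudocount of 64, the lowest 60% left out or array weights (0 to 1 with 1 array left out). Same-numbered arrays did not deviate together in most pairs (correlations of -0.19 to 0.23), so the numbers were not taken as pairs.

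Values near 0 that did not pass in the fit reported above changed sign in some settings. For BP against Rag1, Ocln 1440220_at was -0.12 with median centring, -0.095 as deposited, -0.13 with the covariate and -0.15 with BP replicate 2 alone (-0.071 to 0.12 with 1 array left out). Ocln 1448873_at was 0.012 with array weights (-0.068 to 0.040), and 0.0077 as the mean of both probe sets. Cdh1 was -0.085 with median centring, -0.061 as deposited and -0.15 with array weights (-0.21 to 0.14), Tjp1 -0.10 to 0.50 and Cgn 1430329_at -0.49 to 0.0040 with 1 array left out. For BP against B6, Ocln 1440220_at was -0.13 with median centring, -0.077 with the covariate and -0.15 with BP replicate 2 alone (-0.069 to 0.12), Ocln 1448873_at -0.071 with median centring (-0.059 to 0.22), Cdh1 -0.090 with median centring and -0.038 with array weights (-0.10 to 0.24), Cgn 1430329_at -0.27 with the covariate and -0.36 with BP replicate 2 alone (-0.29 to 0.39), and Tjp1 -0.0085 to 0.59. For Rag1 against B6, median centring gave -0.0096 for Ocln 1440220_at, -0.0051 for Cdh1 and -0.074 for Cldn7, the covariate gave -0.19 for Tjp1 and -0.037 for Cdh1, the mean of both F11r probe sets was -0.069, and with 1 array left out Ocln 1440220_at ran from -0.094 to 0.055, Ocln 1448873_at from -0.051 to 0.22 and Cgn 1430329_at from -0.065 to 0.62. Averaged with its dim probe set, F11r in BP against Rag1 was -0.20 (adjusted p = 0.650). The cause of these differences between settings was not tested.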
